A study of Mus musculus with 6 samples.

Results

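The drug-metabolizing cytochrome P450 genes of families 1 to 3 in mouse liver were taken as 43 listed gene symbols, and 41 of them had a row in a TPM table of 54600 genes. Cytochrome P450 enzymes are heme proteins of the endoplasmic reticulum that oxidize drugs, toxins, steroids and fatty acids, using electrons passed to them by P450 oxidoreductase. In the liver they are made by hepatocytes, and the genes of families 1 to 3 lie in dense clusters of close paralogs. Many of them are induced through the nuclear receptors PXR and CAR or the aryl hydrocarbon receptor, several are expressed mainly in one sex under the control of growth hormone, and most are strongest around the central vein. Each of the 41 had a single row. Cyp2c44 is, in RefSeq, an older name of Cyp2c23 and was counted once, and Cyp2d13, a transcribed pseudogene in RefSeq, matched no row by name. By subfamily the genes with a row are 1 of Cyp1a, 4 of Cyp2a, 3 of Cyp2b, 12 of Cyp2c, 7 of Cyp2d, 7 of Cyp3a and 7 others of family 2.

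The study sequenced RNA of whole mouse liver in 6 libraries. Every mouse had eaten high-fat diet for 16 weeks. The 3 labelled WT, called WT libraries, carry no allele in the labels beyond wild type, and the 3 labelled KO, called KO libraries, come from mice with a knockout of HIF-2α, the oxygen-regulated subunit of a transcription factor, restricted to hepatocytes. The labels give no strain, age, sex or Cre driver, and they number the libraries 1 to 3 in each group without naming animals, so p-values measure the spread between these libraries, which may be technical. Values are TPM, a level per transcript length that adds up to the same total in each library, so sequencing depth is unknown and its precision cannot be given. The 11440 genes that reached 1 TPM in 3 or more libraries were tested with limma on log2(TPM + 1), and differences are given as KO minus WT on that scale, which understates changes of low genes.

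Epas1, the gene of HIF-2α, was at 23.8, 26.0 and 21.01 TPM in WT libraries and 26.6, 35.1 and 29.4 TPM in KO libraries. The groups did not overlap and the difference of +0.34 went against the label (exact two-sided permutation p = 0.10, the smallest that 3 against 3 libraries allow, and limma adjusted p = 0.993). Of all tested genes 8.23% were separated in that direction. With the replicate number as a block, which treats same-numbered libraries as pairs, Epas1 had an unadjusted limma p below 0.05 and an adjusted p of 0.724. Of all tested genes 5.26% were higher in KO libraries at that unadjusted p. After median-ratio scaling the Epas1 difference was +0.24 and its groups overlapped. These values cover the whole gene and every liver cell type, so they do not show whether hepatocytes carry the deletion, and all directions below are between libraries labelled KO and libraries labelled WT. The 4 Y-linked genes Ddx3y, Eif2s3y, Kdm5d and Uty were between 3.56 and 35.3 TPM in every library and Xist was at most 0.005 TPM. The 7 hepatocyte markers summed to between 50106 and 72001 TPM per library. In whole tissue, fewer cells of a type and less RNA per cell cannot be told apart.

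The regions upstream of some of these genes are shown first, because the paralogs described below differ far more in level than in sequence. Upstream windows of 250 bases were taken from RefSeq on GRCm38.p6, the patch release of mm10, and 35 of the 41 genes had one. Each window ends at the RefSeq start, while the gene positions given below come from another annotation, GENCODE. Some windows therefore reach into the gene as GENCODE places it, as for Cyp2a5, which starts at 26835305 there. Cyp2a4 and Cyp2a5, whose levels lay far apart, are shown with the bases that differ in an alignment of the pair in capitals (chr7:26306942-26307191 and chr7:26835089-26835338, both plus strand).
Cyp2a4: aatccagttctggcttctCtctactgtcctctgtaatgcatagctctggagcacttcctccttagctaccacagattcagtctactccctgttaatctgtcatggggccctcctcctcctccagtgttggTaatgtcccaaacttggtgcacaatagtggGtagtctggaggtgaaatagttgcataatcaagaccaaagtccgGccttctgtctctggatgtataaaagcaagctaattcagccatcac
Cyp2a5: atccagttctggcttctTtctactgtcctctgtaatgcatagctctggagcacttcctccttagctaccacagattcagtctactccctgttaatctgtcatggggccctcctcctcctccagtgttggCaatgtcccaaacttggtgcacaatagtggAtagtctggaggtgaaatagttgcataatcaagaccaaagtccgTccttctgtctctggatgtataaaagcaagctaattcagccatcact
The windows, offset by 1 base, differ at 4 aligned bases, an identity of 98.4%, and the coding sequences are 98.4% identical as well. Cyp2b9 and Cyp2b13 are shown in the same way (chr7:26173159-26173408 and chr7:26061245-26061494, both plus strand).
Cyp2b9: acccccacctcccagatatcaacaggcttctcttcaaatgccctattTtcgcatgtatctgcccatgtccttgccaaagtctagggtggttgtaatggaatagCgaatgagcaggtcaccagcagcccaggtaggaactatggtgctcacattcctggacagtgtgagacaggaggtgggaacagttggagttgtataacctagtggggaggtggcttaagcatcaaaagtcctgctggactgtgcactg
Cyp2b13: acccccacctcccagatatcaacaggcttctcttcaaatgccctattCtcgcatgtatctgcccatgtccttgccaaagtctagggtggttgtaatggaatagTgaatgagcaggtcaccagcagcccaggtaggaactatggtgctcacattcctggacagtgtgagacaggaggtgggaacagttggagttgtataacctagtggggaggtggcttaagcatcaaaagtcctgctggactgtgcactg
These windows differ at 2 bases, an identity of 99.2%. The most abundant gene, Cyp2e1, and the main drug-oxidizing Cyp3a gene, Cyp3a11, are shown with motif matches in capitals (chr7:140763569-140763818, plus strand, and chr5:145879855-145880104, minus strand).
Cyp2e1: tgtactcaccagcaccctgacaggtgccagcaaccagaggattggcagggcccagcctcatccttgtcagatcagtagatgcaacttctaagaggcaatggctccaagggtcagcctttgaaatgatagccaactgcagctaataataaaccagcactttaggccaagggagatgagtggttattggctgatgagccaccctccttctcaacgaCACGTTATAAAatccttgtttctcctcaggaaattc
Cyp3a11: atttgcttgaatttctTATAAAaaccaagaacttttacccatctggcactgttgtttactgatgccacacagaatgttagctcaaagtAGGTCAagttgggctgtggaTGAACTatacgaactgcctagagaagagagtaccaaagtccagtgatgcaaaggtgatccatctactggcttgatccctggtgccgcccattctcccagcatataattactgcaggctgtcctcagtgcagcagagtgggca

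The 6 motifs named below were searched on both strands of the 35 windows and of all 32851 windows in the same RefSeq table. TATAAA, the string of the TATA box, was in 20 of the 35 P450 windows (57.1%) and in 12.4% of all windows. In Cyp2a4 and Cyp2a5 it starts 28 and 29 bases before the RefSeq start, and in Cyp3a11 234 bases before it. It was counted at any position and on either strand, so not every match is a TATA box, and closely alike windows of paralogs were counted separately. The HIF core ACGTG was in the windows of Cyp2e1 and Cyp2j6 only (5.71%, against 16.6% of all windows). In Cyp2e1 its match, on the minus strand, lies directly before the TATA box, and in Cyp2j6 the matches on both strands overlap each other. GCGTG, a core bound by the aryl hydrocarbon receptor and also by HIF, was in Cyp2b10 and Cyp2c68 (5.71%, against 28.2%). The nuclear receptor half-sites AGGTCA and AGTTCA were in 9 and 6 windows (25.7% and 17.1%, against 14.0% and 11.8%), and Cyp3a11 held both. TTCNNNGAA, the STAT motif, was in none of the 35 and in 7.02% of all windows. A match is a string of letters and not a binding site, and no match says only that these letters are absent from this window.

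P450 transcripts made up between 0.910% and 1.21% of a library's TPM. The summed TPM of the 41 genes was 11899, 10866 and 9101 in WT libraries and 11482, 12055 and 10653 in KO libraries, and the groups overlapped, with WT replicate 3 lowest of all. Cyp2e1, which oxidizes ethanol and paracetamol, held between 36.3% and 45.4% of that sum, and the 10 most abundant genes held 84.3%. Of the 41 genes, 18 had a mean above 100 TPM, 31 passed the filter on low values, and 10 did not pass. Cyp3a41a was listed at 0 in all 6 libraries.

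**Figure D1:**
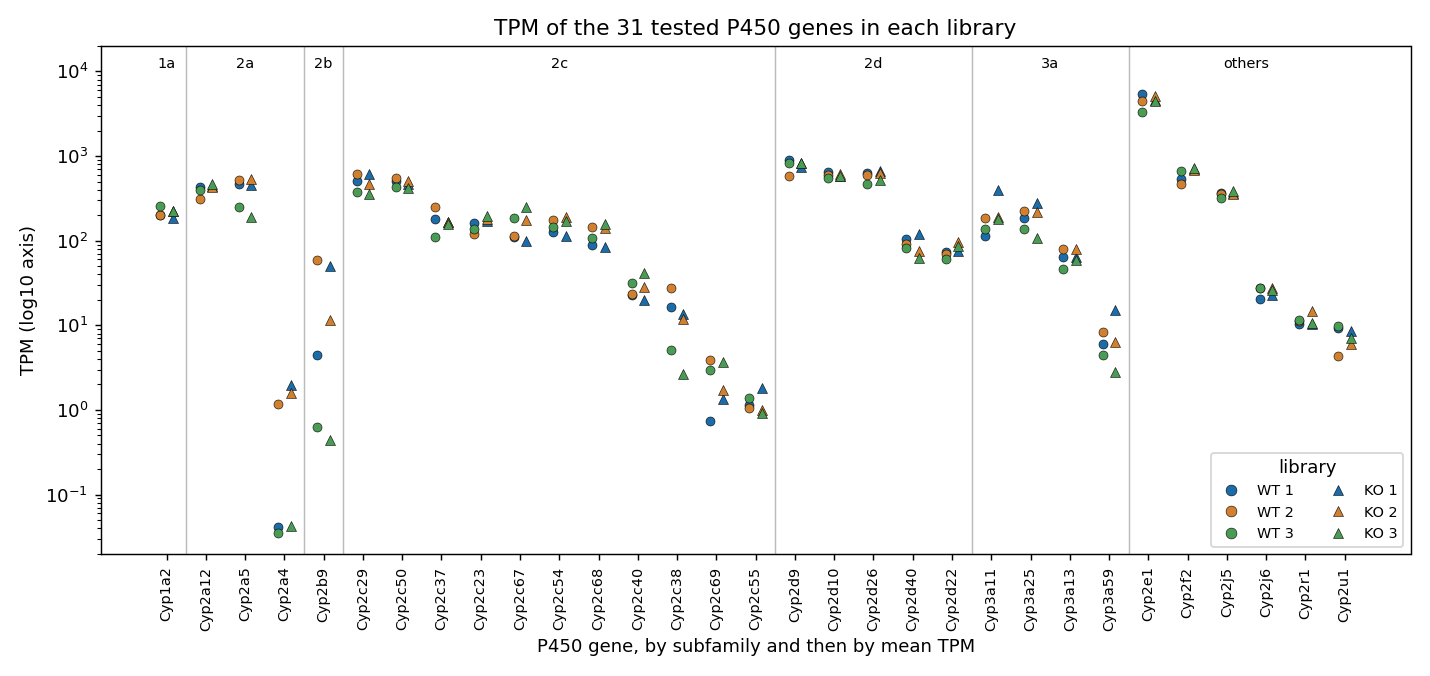
TPM on a log10 axis of the 31 P450 genes that passed the filter, ordered by subfamily and then by mean; circles are libraries labelled WT, triangles those labelled KO, and colour gives the library number. Cyp2e1 stands highest at 3305 to 5398 TPM, most genes have overlapping groups, and Cyp2b9 runs from 0.436 to 59.6 TPM.

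**Figure D2:**
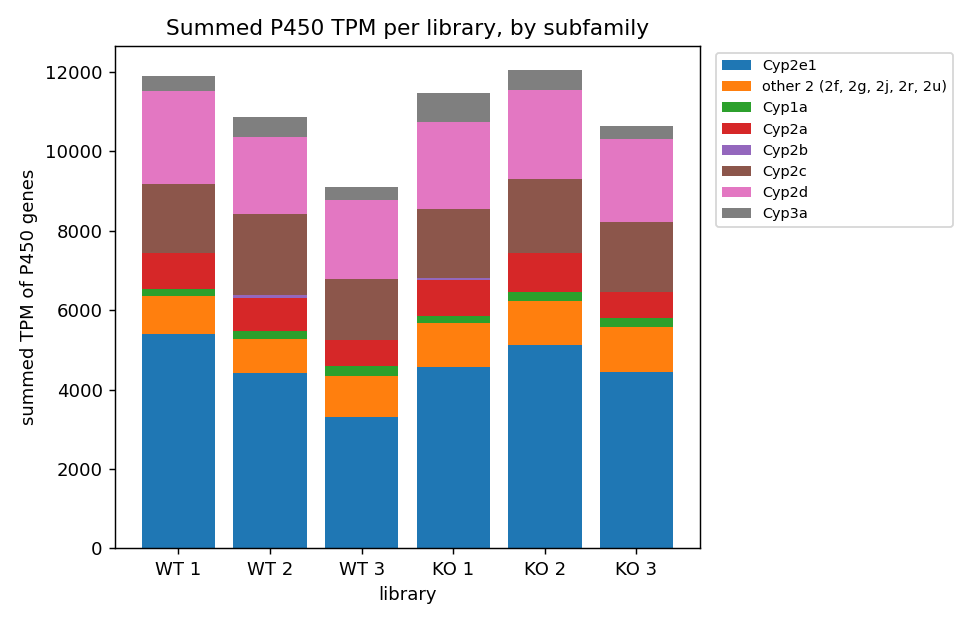
Stacked bars of summed TPM of the 41 P450 genes in each library, with Cyp2e1 set apart from the other family 2 genes outside subfamilies 2a to 2d. The total runs from 9101 in WT replicate 3 to 12055 in KO replicate 2, and Cyp2e1 and Cyp2d form most of it.

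No P450 gene passed the test between the labels: 0 of the 31 tested had a limma adjusted p below 0.05 (Benjamini-Hochberg), against 0.00874% of all tested genes, and the smallest adjusted p of any of them was 0.993. At an unadjusted limma p below 0.05, 2 were higher in the libraries labelled KO, Cyp2c23 and Cyp2d22, and none was lower. Over all tested genes the shares were 2.76% higher and 0.385% lower. With the replicate number as a block, which treats same-numbered libraries as pairs, 3 were higher and 1 lower at that p (5.26% and 0.918% of all genes) and still none passed after adjustment. With median-ratio scaling or quantile normalization none had such a p (2.56% and 2.59% of all genes), and with TPM recomputed without the most abundant genes 1 was higher, against 2.04%. The median difference of the 31 genes was +0.07 and that of all tested genes +0.09. Median-ratio scaling, which sets the typical gene to no change, moved the median of all genes to -0.002 and that of the P450 genes to -0.03, and the count above 0 went from 21 of 31 (74.5% of all tested genes) to 12 of 31 (49.6%). The direction of 10 of the 31 genes turned under at least 1 of the 3 other scalings: Cyp2c54, Cyp2c55, Cyp2d9, Cyp2d26, Cyp2j5, Cyp2j6, Cyp2r1, Cyp3a13, Cyp3a25 and Cyp3a59. The labels did not overlap for 4 genes, all higher in KO libraries, and 0 were separated in the lower direction (8.23% and 0.857% of all tested genes). The 4 are Cyp2a12, Cyp2c23, Cyp2d22 and Cyp2f2. After median-ratio scaling 2 of them, Cyp2c23 and Cyp2d22, were still separated, against 3.44% of all genes, and Cyp2c50 and Cyp2d10 were separated in the lower direction, against 3.51%.

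**Figure D3:**
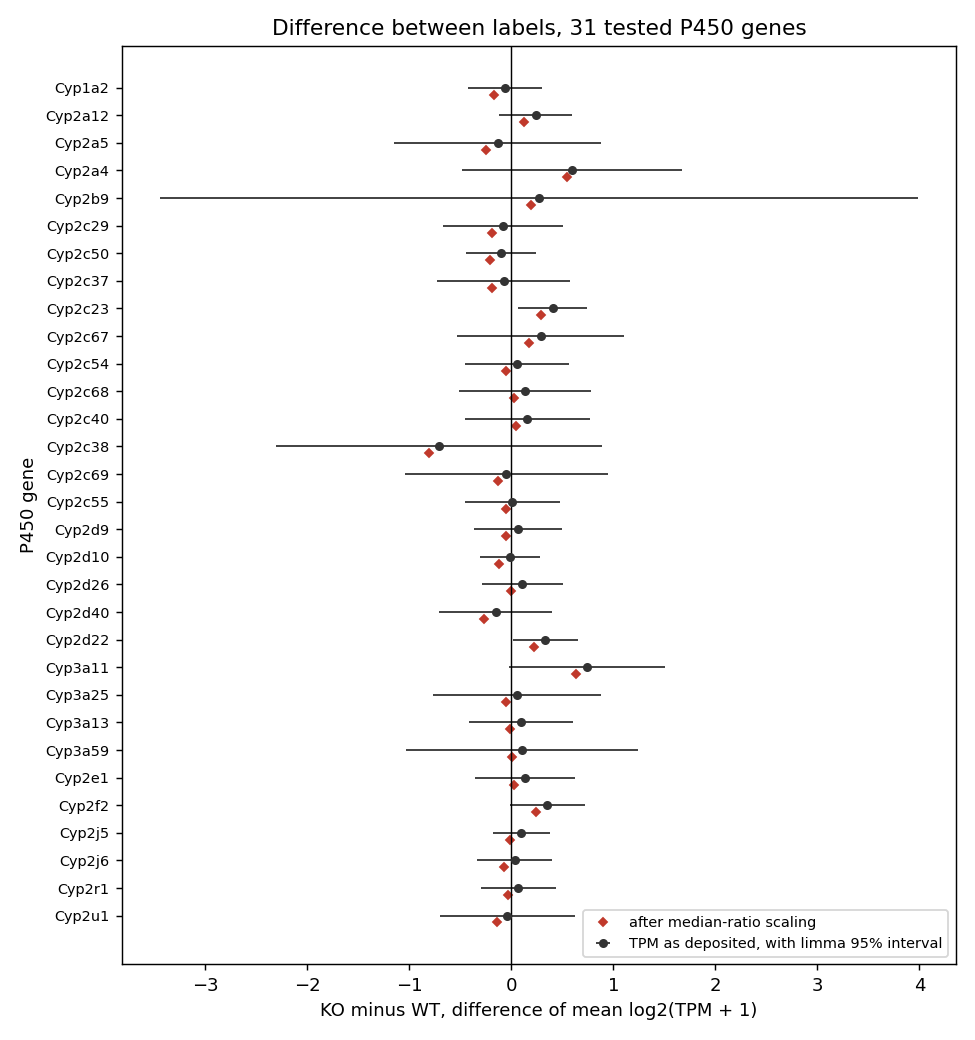
Difference of mean log2(TPM + 1), KO minus WT, for the 31 tested P450 genes; black points and bars are the limma estimates with 95% intervals and red diamonds the estimates after median-ratio scaling. All intervals but those of Cyp2c23 and Cyp2d22 include 0, and the interval of Cyp2b9 runs from -3.44 to +3.98.

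Cyp1a2, the caffeine-oxidizing enzyme regulated through the aryl hydrocarbon receptor, was at 199.6, 200.2 and 260 TPM in WT libraries and 185, 222.3 and 221.8 TPM in KO libraries. The groups overlapped, and the difference was -0.06 with a limma 95% interval from -0.43 to +0.30. The other Cyp1a gene, Cyp1a1, which is not among the 43, was at most 0.470 TPM in any library and was not tested.

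The Cyp2a genes lie with Cyp2b, Cyp2f2 and Cyp2g1 in 1236 kb of chromosome 7 (mm10 25897620 to 27133660). Cyp2a12, a steroid hydroxylase (27029081 to 27037375), was at 426.7, 313 and 400.3 TPM in WT libraries and 438, 427.7 and 469.7 TPM in KO libraries. Every KO value was above every WT value, though the nearest were 426.7 and 427.7 TPM, and median-ratio scaling ended the separation. The difference was +0.24 (limma interval -0.12 to +0.60). Cyp2a5, the coumarin hydroxylase (26835305 to 26843548), was at 468, 524 and 252 TPM against 457, 540.3 and 189 TPM. The third library was the lowest of both labels, and the difference of -0.13 was small beside that spread (limma interval -1.15 to +0.88).

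Cyp2a4, a testosterone hydroxylase that is predominant in females, stood far below its close copy. It was at 0.041, 1.16 and 0.035 TPM in WT libraries and 1.98, 1.58 and 0.043 TPM in KO libraries, a mean of 0.807 TPM against 405 TPM for Cyp2a5. The libraries stood in sets of 3 at most 0.043 TPM and 3 above 1 TPM, with both labels in each set. Of the 100-base windows of its coding sequence, 13.2% also occur in Cyp2a5, so reads from those windows cannot be assigned to 1 of the pair by sequence. Cyp2a5 was at or above 188.7 TPM in every library, those 3 included. The limma difference was +0.59 (adjusted p = 0.993). Cyp2a22, which shares 7.84% of these windows with Cyp2a12, was at 2.44 TPM in WT replicate 2, at most 0.267 TPM in the other libraries and listed at 0 in WT replicate 1 and KO replicate 1.

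Cyp2b9 was the P450 gene with the widest spread. This female-predominant steroid hydroxylase lies at chromosome 7, 26173411 to 26210661. It was at 4.40, 59.6 and 0.624 TPM in WT libraries and 50.8, 11.5 and 0.436 TPM in KO libraries. The highest value was 95.5 times the lowest within WT and 116.6 times within KO, and the means of 21.5 ± 33.0 and 20.9 ± 26.5 TPM (SD, n = 3 each) did not differ beyond that spread. Both libraries numbered 3 were below 1 TPM. Cyp2b10, the classical CAR target, was at 0.085, 0.455 and 0.097 TPM against 1.09, 0.209 and 0 TPM, and Cyp2b13 at 0.087, 0.584 and 0 TPM against 1.45, 0.143 and 0 TPM. Both were highest in KO replicate 1 and second in WT replicate 2, the 2 libraries in which Cyp2b9 was highest, in the opposite order. Cyp2b13 has almost the same upstream window as Cyp2b9, and its mean level was 0.377 TPM against 21.2 TPM. Only 1.02% of its 100-base coding windows occur in Cyp2b9, and none of those of Cyp2b10 occur in another P450 gene of the annotation.

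The levels of Cyp2b9 ran opposite to those of 3 of the 7 listed male-predominant liver genes across the libraries. Ordered from the highest Cyp2b9 to the lowest, the libraries were WT 2, KO 1, KO 2, WT 1, WT 3 and KO 3. In that order Cyp7b1, an oxysterol hydroxylase, was at 28.5, 44.8, 46.7, 85.98, 166.7 and 211 TPM. Hsd3b5, a steroid dehydrogenase, was at 28.9, 66.7, 86.6, 163, 251 and 347 TPM, and Selenbp2 at 38.1, 68.0, 196.7, 197.4, 903 and 1048 TPM. The order of the libraries was thus the exact reverse of that of Cyp2b9 for 3 of the 7 male-predominant genes listed outside the P450 families 1 to 3, and for 0.175% of all tested genes. The other 4, Cyp4a12a, Elovl3, Slco1a1 and Mup20, each had their highest value in WT replicate 3 or KO replicate 3. This order was noticed in the data and was not tested. The list was chosen with earlier results of these data known, so these shares are no test of it. Both labels stand among the first 3 and the last 3 libraries of the order. Among female-predominant genes outside these families Acot3 was at 2.01, 30.2 and 0.288 TPM in WT and 5.69, 22.7 and 0.074 TPM in KO, lowest in both libraries numbered 3. Fmo2, the other tested gene of that list, was at 2.07, 9.79 and 1.36 TPM in WT and 2.67, 12.3 and 2.92 TPM in KO, highest in both libraries numbered 2 and lowest in replicate 3 of WT and replicate 1 of KO. The other tested female-predominant P450 genes of the list were Cyp2a4, Cyp2c40 and Cyp2c69. Cyp2a4 was lowest in both libraries numbered 3. Cyp2c40 went the other way and was highest in both libraries numbered 3, at 31.4 TPM in WT and 41.0 TPM in KO. Cyp2c69 was highest in WT replicate 2 and KO replicate 3, at 3.86 and 3.72 TPM. Cyp2d9, the male-predominant testosterone hydroxylase, did not follow the reverse order.

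**Figure D4:**
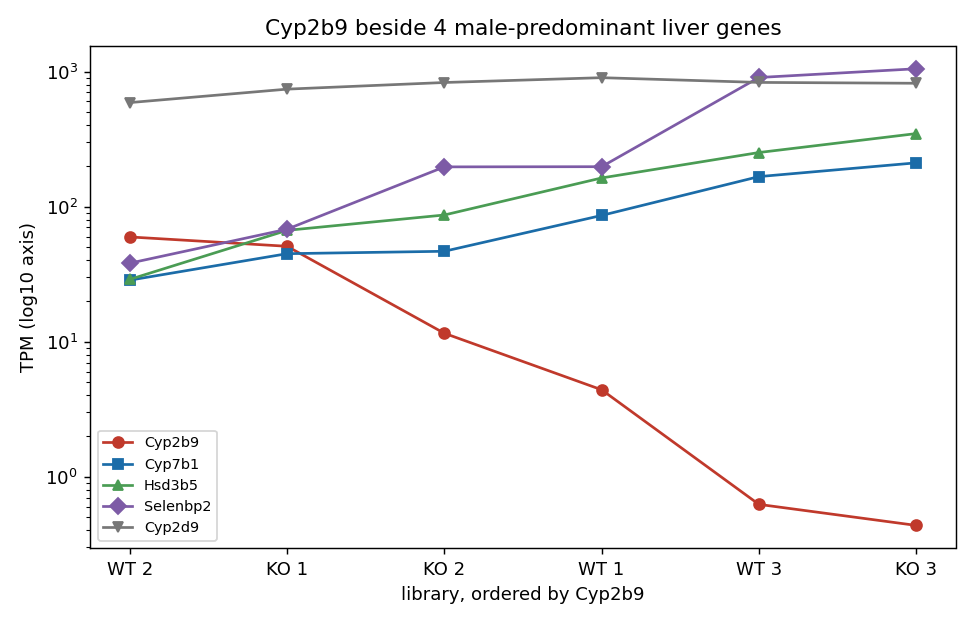
TPM on a log10 axis in the 6 libraries, ordered from the highest to the lowest Cyp2b9, for Cyp2b9 and 4 male-predominant genes. Cyp2b9 goes from 59.6 to 0.436 TPM while Selenbp2 goes from 38.1 to 1048 TPM, and the order mixes both labels. Cyp7b1, Hsd3b5 and Selenbp2 are drawn because they have the exact reverse order, and Cyp2d9 does not follow it.

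Cyp2c enzymes oxidize arachidonic acid and many drugs. Of the 12 genes, 11 lie in 1107 kb of chromosome 19 (39007019 to 40113950), and Cyp2c23, an arachidonic acid epoxygenase, lies apart from them at 44005022 to 44029208. Cyp2c23 was at 159.8, 119 and 138 TPM in WT libraries and 172, 182 and 195.5 TPM in KO libraries. The groups did not overlap, before or after median-ratio scaling, and the ratio of means was 1.32. The difference of +0.40 had a standard error of 0.14, a limma p of 0.025 unadjusted and 0.993 adjusted over all tested genes, and was +0.29 after median-ratio scaling. No 100-base window of its coding sequence occurs in another P450 gene.

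Cyp2c29, the highest of the subfamily, was at 507, 620.2 and 379 TPM against 612, 466 and 354 TPM, and Cyp2c50, at the other end of the cluster, at 510.1, 557 and 429 TPM against 465, 504 and 424 TPM. Both overlapped, with differences of -0.08 and -0.10. Cyp2c38, which oxidizes arachidonic acid, was at 16.4, 27.3 and 5.10 TPM in WT and at 13.6, 12.0 and 2.64 TPM in KO. Within each number the library labelled KO was lower, and the difference of -0.71 had an interval from -2.31 to +0.89. With the replicate block its unadjusted limma p was 0.010, the smallest of any P450 gene, and its adjusted p was 0.724. Over its alternatives the adjusted p ran from 0.724 to 0.9999. Without KO replicate 3 the difference was -0.07, and without WT replicate 3 it was -1.33.

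A row of 4 adjacent genes of the cluster, Cyp2c67, Cyp2c68, Cyp2c40 and Cyp2c69 (39608842 to 39886799), shared a pattern across libraries. Cyp2c67 was at 111, 114 and 185 TPM in WT and 98.7, 173.5 and 248 TPM in KO, and Cyp2c40 at 22.8, 23.3 and 31.4 TPM against 19.8, 28.7 and 41.0 TPM. Cyp2c68 was at 88.7, 147 and 109 TPM against 84.4, 139.9 and 158 TPM. For Cyp2c69 the values were 0.733, 3.86 and 2.93 TPM against 1.33, 1.72 and 3.72 TPM. Replicate 1 was the lowest library of both labels for each of the 4. Their coding sequences are between 96.5% and 98.1% identical in pairs, and between 22.9% and 50.6% of their 100-base windows occur in another P450 gene, so these are not 4 independent readings. The low members Cyp2c39 (0.341 to 2.39 TPM) and Cyp2c55 (0.917 to 1.82 TPM) stood near 1 TPM, and Cyp2c39 did not pass the filter. Cyp2c37 was at 109.5 to 253 TPM and Cyp2c54 at 114 to 191.5 TPM, with overlapping groups.

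The Cyp2d genes, which hydroxylate steroids and basic drugs, span 424 kb of chromosome 15 (82370527 to 82794294). Cyp2d9 was at 900.1, 589 and 830.3 TPM in WT libraries and 740.3, 829 and 818 TPM in KO libraries. The groups overlapped around one low library, WT replicate 2, and the difference was +0.06, turning to -0.05 after median-ratio scaling. Cyp2d22, at the edge of the cluster (82370527 to 82380260), was at 73.4, 70.3 and 60.9 TPM in WT and 76.6, 95.3 and 86.9 TPM in KO. The groups did not overlap, the ratio of means was 1.26, and the difference of +0.33 (standard error 0.14) had a limma p of 0.043 unadjusted and 0.993 adjusted. After median-ratio scaling it was +0.22. Cyp2d10 (547 to 646 TPM) and Cyp2d26 (468 to 664 TPM) had differences of -0.01 and +0.11, the latter turning below 0 after median-ratio scaling. Cyp2d40 was between 62.9 and 119 TPM, and Cyp2d11 and Cyp2d12 were at most 0.267 and 0.935 TPM.

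Cyp3a11 is the main drug-oxidizing Cyp3a enzyme of mouse liver and a PXR target. In TPM as deposited, on log2(TPM + 1), it had the largest difference between the labels among the tested P450 genes. Cyp2c38 was further from 0 after median-ratio scaling (-0.81, against +0.63), quantile normalization (-0.80, against +0.68) and with TPM recomputed (-0.81, against +0.68). With TPM recomputed the low gene Cyp2a4, at +0.79, was also further from 0. With 0.1 added to TPM in place of 1, Cyp2a4 was at +1.46, Cyp2c38 at -0.79 and Cyp3a11 at +0.75. Cyp3a11 was at 113, 184 and 136 TPM in WT libraries and 394, 189 and 179 TPM in KO libraries. KO replicate 1 was more than 2 times any other library, the other 5 libraries lay between 113 and 189 TPM, and the groups overlapped. The ratio of means was 1.76 and the difference +0.74 with an interval from -0.02 to +1.51, a limma p of 0.055 unadjusted and 0.993 adjusted. Without KO replicate 1 the difference was +0.38. Cyp3a25 was also highest in KO replicate 1, at 275 TPM against 139 to 227 TPM in WT, as was its close copy Cyp3a59, at 14.999 TPM against 4.42 to 8.37 TPM in WT. The 2 share 5.46% of their 100-base coding windows. Cyp3a13, which lies outside the cluster of the other 6, was at 46.9 to 80.2 TPM. The differences of Cyp3a13, Cyp3a25 and Cyp3a59 were +0.10, +0.06 and +0.10, and each turned under at least 1 scaling. Of the female-predominant Cyp3a genes, Cyp3a16 was above 0 in 1 library (0.091 TPM), Cyp3a44 in 1 library (0.028 TPM) and Cyp3a41a in none. As 89.2% of the coding windows of Cyp3a41a occur in other P450 genes, mainly its copy Cyp3a41b, a listed 0 could also reflect reads matching both genes, which was not tested.

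Summed over the subfamily, the Cyp3a genes were at 369, 499.5 and 326 TPM in WT and 748, 496 and 348 TPM in KO, a ratio of means of 1.33 that rests on KO replicate 1. The log2 ratio was +0.41 and ran from +0.08 to +0.64 when 1 library was left out. The sums of Cyp2c were 1726, 2043 and 1539 TPM against 1749.8, 1866 and 1756 TPM, and those of Cyp2d 2360.4, 1945 and 1989 TPM against 2174, 2253 and 2081.5 TPM. The ratios of means were 1.01 and 1.03.

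Cyp2e1 was at 5398, 4413 and 3305 TPM in WT libraries and 4571, 5132 and 4436 TPM in KO libraries. The KO values lay inside the WT range, and the difference of +0.13 had an interval from -0.35 to +0.62. Cyp2f2, the naphthalene-activating enzyme of periportal hepatocytes, was at 541, 466 and 662 TPM in WT and 698, 690.5 and 722 TPM in KO. The groups did not overlap, with 556 ± 99.2 and 704 ± 16.6 TPM (SD, n = 3 each). The difference of +0.35 had an interval from -0.02 to +0.72, a limma p of 0.058 unadjusted and 0.993 adjusted, and one of 0.024 unadjusted with the replicate block. After median-ratio scaling the difference was +0.24 and the groups overlapped. Cyp2j5, an arachidonic acid epoxygenase, was at 317 to 363 TPM in WT and 361 to 384 TPM in KO. Cyp2j6 (20.4 to 27.8 TPM), the vitamin D hydroxylase Cyp2r1 (10.3 to 14.7 TPM) and the fatty acid hydroxylase Cyp2u1 (4.31 to 9.91 TPM) had overlapping groups. Cyp2g1, known from the olfactory lining, was at 2.92 TPM in WT replicate 1, 4.38 TPM in KO replicate 2 and below 1 TPM elsewhere.

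For some P450 genes the lowest library carried the same number in both labels, as the map of deviations shows. Replicate 3 was the lowest library of both labels for 13 of the 31 tested P450 genes, Cyp2e1, Cyp2a5, Cyp2b9, Cyp2c29, Cyp2c38 and Cyp3a25 among them, against 35.2% of all tested genes. Replicate 1 was the lowest of both for 8 of 31, against 4.89% of all tested genes, and 4 of these 8 are the adjacent and closely alike Cyp2c genes. Replicate 2 was the lowest of both for 3 of 31, against 10.4%. Replicates 1, 2 and 3 were the highest of both for 2, 5 and 3 of 31. No share of all genes is given for these counts, so they cannot be read as particular to the P450 genes. As the genes share clusters and sequence, these counts were not tested.

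**Figure D5:**
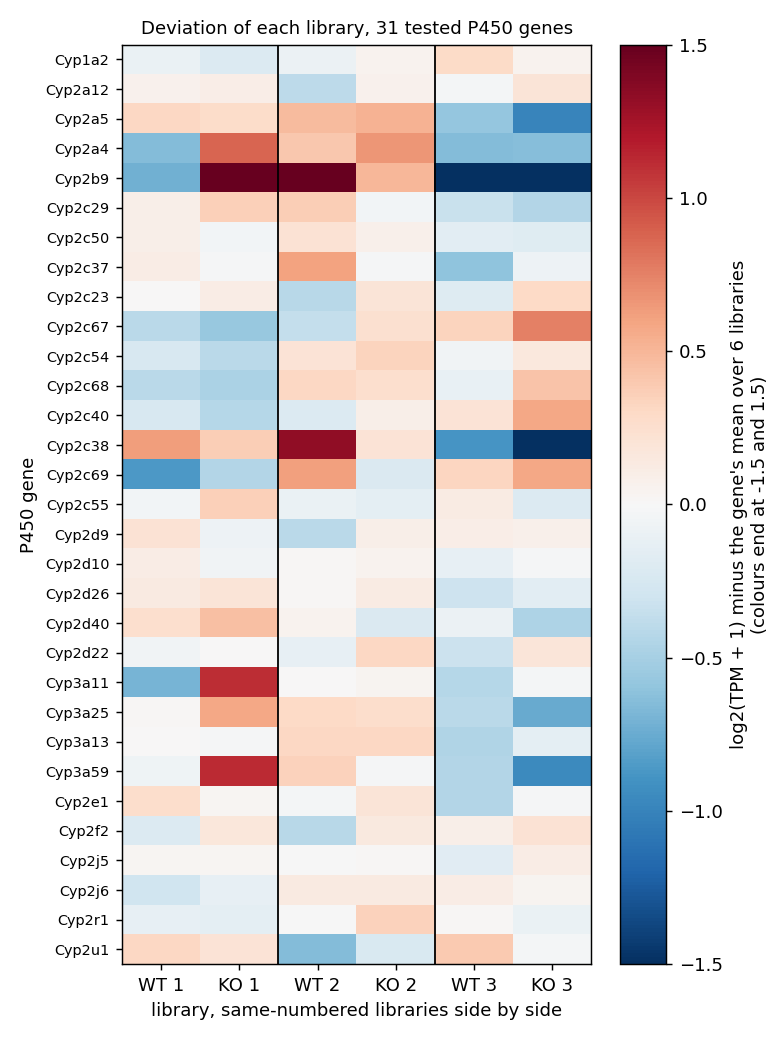
Deviation of each library from the gene's mean on log2(TPM + 1), with same-numbered libraries side by side and colours ending at -1.5 and 1.5, for the 31 tested P450 genes. The columns of WT 3 and KO 3 share blue rows at Cyp2a5, Cyp2b9 and Cyp2c38, and WT 1 and KO 1 share blue rows at Cyp2c67, Cyp2c68 and Cyp2c40.

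The receptors and partners of the P450 system were also compared. Of 13 transcription regulators all were tested, none passed after adjustment and none had an unadjusted limma p below 0.05. With the replicate block 1 of the 13, Foxa2, had one of 0.015, higher in KO, against 5.26% of all tested genes. Nr1i2, encoding PXR, was at 22.3, 25.4 and 16.5 TPM in WT and 26.7, 21.3 and 22.1 TPM in KO. Nr1i3, encoding CAR, was at 61.3, 77.35 and 39.3 TPM against 70.1, 89.4 and 32.5 TPM, lowest in both libraries numbered 3. Ahr, the aryl hydrocarbon receptor, was at 12.1, 11.3 and 10.5 TPM against 11.7, 10.1 and 5.43 TPM. Foxa2, a hepatocyte factor, had the smallest p of the list, at 7.92, 15.6 and 11.7 TPM against 10.9, 20.8 and 28.9 TPM (difference +0.68, limma adjusted p = 0.993). Por, the oxidoreductase that supplies the electrons, was at 79.0, 195.5 and 69.0 TPM in WT and 103, 203 and 68.8 TPM in KO. Both libraries numbered 2 were at or above 195.5 TPM and the other 4 libraries lay between 68.8 and 103 TPM, and the labels did not differ beyond that spread.

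None of the 5 electron donors, 9 heme synthesis and breakdown genes, 7 PXR and CAR targets outside the P450 families or 13 tested genes of other first-phase drug oxidation and hydrolysis had an unadjusted limma p below 0.05. With the replicate block 1 of the PXR and CAR targets, the carboxylesterase Ces2a, had one of 0.030, higher in KO. So had 1 of the last list, the flavin monooxygenase Fmo2, at 0.034, also higher in KO. Of all tested genes 5.26% were higher in KO at an unadjusted limma p below 0.05 with the block. The median differences of these lists were -0.04, -0.03, +0.04 and +0.002, against +0.09 for all tested genes. Alas1, the rate-limiting enzyme of heme synthesis, was at 575, 891 and 514 TPM in WT and 864, 854 and 678 TPM in KO (difference +0.31). Of 5 aryl hydrocarbon receptor targets 2 were tested, Nqo1 and Tiparp, and neither had an unadjusted p below 0.05. Of 9 female-predominant P450 genes 4 were tested and 3 of these were above 0 (74.5% of all tested genes), and of 7 such genes outside the families 2 were tested. Neither list had an unadjusted p below 0.05 apart from that of Fmo2 with the block.

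Zonation genes were set beside the P450 genes because Cyp1a2 and Cyp2e1 are pericentral and Cyp2f2 periportal. All 9 pericentral genes outside the P450 families had a difference below 0 in TPM as deposited and under the 3 other scalings, with a median of -0.28, against 25.5% of all tested genes below 0 in TPM as deposited. With median-ratio scaling, quantile normalization and TPM recomputed, 50.4%, 50.6% and 39.8% of all tested genes were below 0. At an unadjusted limma p below 0.05, 2 of the 9 were lower (0.385% of all tested genes). The count was 5 with median-ratio scaling, 5 with quantile normalization and 4 with TPM recomputed. Over all tested genes these counts were 146 of 11440, 155 of 11440 and 114 of 12630. With the replicate block 4 of the 9 were lower at that p (0.918% of all tested genes). None of the 9 passed after adjustment. The list was chosen with earlier results of these data known and every setting uses the same libraries, so these shares are no test of it. Oat, ornithine aminotransferase, was at 538, 655 and 555 TPM in WT against 447, 382.5 and 368 TPM in KO, and Slc1a2, a glutamate transporter, at 47.7, 49.7 and 49.3 TPM against 38.7, 44.2 and 37.9 TPM. Cyp1a2 and Cyp2e1 had differences of -0.06 and +0.13, and whether they differ from the 9 was not tested. Of 9 periportal genes 7 were above 0 (74.5% of all tested genes), with a median of +0.14. After median-ratio scaling 6 of 9 were above 0 (49.6% of all tested genes), with a median of +0.03. None had an unadjusted limma p below 0.05, and with the replicate block 2 were higher at that p (5.26% of all tested genes).

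Markers of other cell types were measured in the same libraries. The 7 stellate cell and fibroblast markers summed to between 103 and 127 TPM in WT and between 126 and 144 TPM in KO, with 3 of 6 tested at an unadjusted limma p below 0.05, all higher in KO, against 2.76% of all tested genes. The count was 0 of 6 with median-ratio scaling or quantile normalization, and 2 of 6 with TPM recomputed or the replicate block (2.04% and 5.26% of all tested genes). Of the tested cholangiocyte and endothelial markers, 1 of 2 (Spp1) and 1 of 5 (Lyve1) were higher in KO at that p. The same genes were higher under each scaling and with the block, though only 1 cholangiocyte marker was tested after median-ratio scaling. Of all tested genes, 147 of 11440 were higher at that p with median-ratio scaling and 141 of 11440 with quantile normalization. The 5 cholangiocyte markers summed to 24.9 to 35.3 TPM against 34.9 to 56.2 TPM, mostly from Spp1, with Krt7 at most 0.168 TPM in every library. The 7 macrophage markers summed to 180 to 255 TPM against 223 to 241 TPM, the 5 endothelial ones to 80.98 to 88.3 against 84.0 to 93.3 TPM, and the 5 lymphocyte ones to 2.31 to 5.44 against 3.55 to 6.08 TPM. These lists were chosen with earlier results of these data known, so the shares are no test of them. The part of these cell types in the P450 values was not tested.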

How the data were processed

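Liver RNA of 6 libraries, 3 labelled WT and 3 labelled KO, was analysed from 1 table of TPM values that the authors deposited. The build mm10 and the tools HISAT2, featureCounts, fastp, limma and DESeq2 are named, with no version or role, per the submitters' processing notes. No column was left out. Gene IDs were matched to GENCODE M21 symbols (51492 of 54323 Ensembl IDs). The files as used here hold no depth, so precision comes from the spread between libraries alone.

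The test was limma (version 3.58.1, R 4.3.3) with a variance trend, applied to log2(TPM + 1) of the 11440 genes that reached 1 TPM in 3 or more libraries, with Benjamini-Hochberg adjustment at 0.05. On simulated data the fit recovered 22%, 68%, 90% and 90% of genes changed 1.5-, 2-, 3- and 4-fold, with 7 false calls. The simulation drew noise separately for each gene, changed 50 genes at each fold at once and left genes of low level unchanged. The libraries used here deviated together over genes, so these rates may not hold for the P450 genes. Alternatives were other pseudocounts, filters, variance trends and library weights, median-ratio and quantile scaling, TPM recomputed after removing mitochondrial genes and the 20 of highest level, a replicate block, and each library left out. Same-numbered libraries deviated together over genes (correlations 0.157, 0.408 and 0.381), so the block treats the numbers as pairs, although the labels do not state a pairing.

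Every library's TPM was to be given for the most abundant gene of each subfamily, the 6 smallest limma p, the 6 widest ranges within a label and 6 textbook enzymes. Values of other P450 genes were added after they were seen. The members and lists were chosen with earlier results of these data known.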

Additional observations from a re-analysis of the deposited data

How the results depend on the processing

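No P450 gene passed after adjustment under any alternative run. Over all genes the count was 1 as reported and 0 with a pseudocount of 5, without a filter, with a filter of 5 TPM, with quantile normalization, and with the replicate block alone or with median-ratio scaling, and 0 to 2 when 1 library was left out. The count of P450 genes with an unadjusted limma p below 0.05 was 2 as reported, 0 with median-ratio scaling, 0 with quantile normalization, 1 with TPM recomputed, 1 without the variance trend, 4 with the replicate block, and 1 to 3 when 1 library was left out (1 without WT replicate 2, WT replicate 3 or KO replicate 2). Their median difference was -0.034 with median-ratio scaling, with or without the block, and 0.04 to 0.13 when 1 library was left out. Cyp2d9 turned to -0.048 with median-ratio scaling, with or without the block, and to -0.0032 with TPM recomputed, and Cyp3a59 to -0.0015 with quantile normalization. Leaving out 1 library turned Cyp1a2 (-0.13 to 0.064), Cyp2b9 (-0.93 to 1.72), Cyp2c29 (-0.28 to 0.12), Cyp2d9 (-0.12 to 0.19), Cyp2e1 (-0.053 to 0.30), Cyp3a59 (-0.43 to 0.61), Cyp2a5 (-0.46 to 0.33) and Cyp2c69 (-0.49 to 0.25). The cause was not tested. Of 265 alternatives of the 15 named P450 genes that were tested, 244 kept their direction. TPM keep no depth, so what sequencing depth limits could not be given.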
